A study of Mus musculus with 11 samples.

Results

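Il10, Prdm1, Ebi3, Fgl2 and Gzmb are 5 genes whose products are used by regulatory T cells to restrain other immune cells, or, for Prdm1, to run that program. They were taken as all probe sets annotated to these symbols on a mouse expression array, which gave 6 of 45037 non-control probe sets and 5 of 17097 genes. Fgl2 had 2 probe sets and each of the other genes had 1. The study compared T cells sorted from the lacrimal gland (the tear gland) of male NOD mice aged 16 weeks, an inbred strain that develops autoimmune disease, including inflammation of the lacrimal gland. LG_eTreg cells were effector regulatory T cells, LG_eTconv cells were effector conventional T cells and LG_naive cells were labelled naive; there were 3 arrays of each. All were live cells positive for CD4 and the T cell receptor beta chain. Both effector subsets were described with the same gate, PD1 and ICOS high with CD73 and CD200 low, so the surface markers given do not tell them apart, and LG_naive cells were negative for PD1 and ICOS. Spl_CD4 and Spl_CD8, with 1 array each, were unsplit CD4+ and CD8+ T cells taken as controls from these animals' spleens. No group carried a transgene or received a treatment in the labels. The labels do not say whether the 3 arrays of a subset came from separate mice or pools, so the p-values reflect only how far these arrays differ among themselves, and that spread may be technical.

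Interleukin 10, the product of Il10, is a cytokine that acts through its receptor and STAT3 to lower the activity of macrophages, dendritic cells and T cells. Blimp-1, the product of Prdm1, is a transcriptional repressor of terminally differentiated lymphocytes, and in mouse effector regulatory T cells it is needed for normal Il10 expression. Ebi3 encodes the chain that pairs with Il27 p28 to make interleukin 27 and with Il12a to make interleukin 35. Fgl2 encodes a fibrinogen-like protein that regulatory T cells secrete and that binds inhibitory Fc receptors on antigen presenting cells. Gzmb encodes granzyme B, a serine protease of cytotoxic granules.

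The 5 genes fell into 3 patterns over the lacrimal gland subsets. Il10 was graded, with LG_eTreg highest, LG_eTconv in between and LG_naive lowest, and each step was called. Prdm1, Fgl2 and Gzmb were high in LG_eTreg, while LG_eTconv and LG_naive were not separated by the test. Ebi3 was high in both effector subsets. In the limma fit over the 9 lacrimal gland arrays, with Benjamini-Hochberg adjustment over all genes and a call at an adjusted p under 0.05, 5 of 5 genes were called higher in LG_eTreg than in LG_naive, where 6.2% of all genes were. In LG_eTreg against LG_eTconv 4 of 5 were called higher, against 2.94% of all genes. In LG_eTconv against LG_naive 2 of 5 were called higher, against 6.45% of all genes. Taken by probe set, 6 of 6 were called higher in LG_eTreg than in LG_naive, 5 of 6 in LG_eTreg than in LG_eTconv and 2 of 6 in LG_eTconv than in LG_naive, against 4.09%, 1.75% and 4.55% of all probe sets. The members had been chosen with such results known, so these counts describe them.

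**Figure D1:**
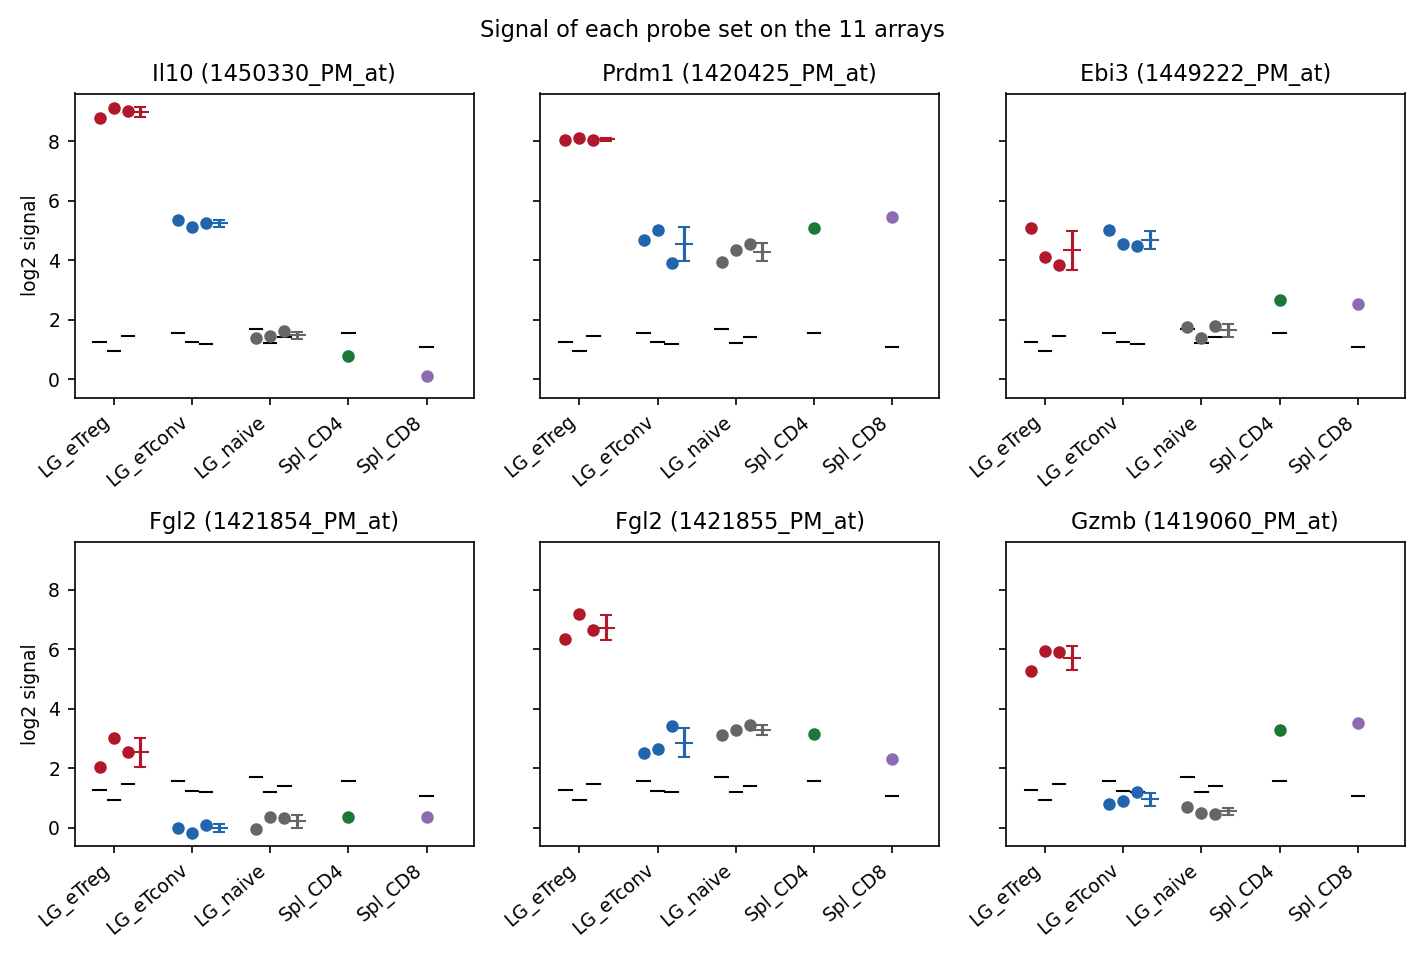
Level of each of the 6 probe sets on every array, on the log2 scale of the deposited values, by group from LG_eTreg at the left to Spl_CD8 at the right; points are arrays and bars are means of 3 arrays. Il10 steps down from LG_eTreg to LG_eTconv to LG_naive, Ebi3 is high in both effector subsets, and Prdm1, Gzmb and both Fgl2 probe sets are highest in LG_eTreg.

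The windows around the annotated starts of Prdm1, Fgl2, Gzmb and Ebi3 were read from RefSeq (GRCm38.p6, 250 bases before to 50 after the start); the table matched 4 of 5 members, all but Il10. They show what 3 of the genes called higher in LG_eTreg than in LG_eTconv carry there, beside Ebi3, which was high in both effector subsets. Each is given 5′ to 3′ on the gene's strand, with capitals marking matches to 3 motifs searched on both strands: TGANTCA, bound by AP-1 factors such as BATF with JUN; GNGAAAG, a Blimp-1 core; and TGCTGA, a Maf half-site. The Prdm1 window lies at chr10:44458699-44458998 on the minus strand, that of Fgl2 at chr5:21372423-21372722 on the plus strand, that of Gzmb at chr14:56262285-56262584 on the minus strand and that of Ebi3 at chr17:55952373-55952672 on the plus strand.
Prdm1: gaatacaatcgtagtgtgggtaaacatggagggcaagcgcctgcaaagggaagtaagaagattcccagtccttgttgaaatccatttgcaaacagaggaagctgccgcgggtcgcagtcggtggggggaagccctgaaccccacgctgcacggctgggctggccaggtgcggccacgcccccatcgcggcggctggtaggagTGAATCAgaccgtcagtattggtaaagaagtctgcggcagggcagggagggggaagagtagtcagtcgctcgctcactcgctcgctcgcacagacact
Fgl2: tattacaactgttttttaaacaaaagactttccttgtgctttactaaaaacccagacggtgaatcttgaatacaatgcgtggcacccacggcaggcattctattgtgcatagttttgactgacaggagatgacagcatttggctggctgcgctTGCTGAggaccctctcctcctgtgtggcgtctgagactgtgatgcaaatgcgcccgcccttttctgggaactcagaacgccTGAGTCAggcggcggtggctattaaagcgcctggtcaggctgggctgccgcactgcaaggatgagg
Gzmb: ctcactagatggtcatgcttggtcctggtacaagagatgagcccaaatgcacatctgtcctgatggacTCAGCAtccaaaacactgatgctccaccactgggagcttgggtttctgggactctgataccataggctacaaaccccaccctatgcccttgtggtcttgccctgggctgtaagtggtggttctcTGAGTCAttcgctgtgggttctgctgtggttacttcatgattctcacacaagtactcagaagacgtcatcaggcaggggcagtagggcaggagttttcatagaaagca
Ebi3: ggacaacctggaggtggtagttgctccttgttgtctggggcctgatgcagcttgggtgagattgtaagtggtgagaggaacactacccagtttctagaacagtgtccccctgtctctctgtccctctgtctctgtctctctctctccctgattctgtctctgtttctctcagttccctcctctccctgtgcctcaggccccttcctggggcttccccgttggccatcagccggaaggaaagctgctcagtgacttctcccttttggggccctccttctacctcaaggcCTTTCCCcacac

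An AP-1 match stood in the windows of Prdm1 (TGAATCA, bases -48 to -42 from the start), Fgl2 (TGAGTCA, -16 to -10) and Gzmb (TGAGTCA, -58 to -52), and this motif is present in 7.81% of the 32851 mouse windows. Fgl2 and Gzmb also held the Maf half-site, at -97 to -92 and, on the opposite strand, at -182 to -177; 19.5% of all windows hold it. The Ebi3 window held neither, and had a Blimp-1 core on the opposite strand at 39 to 45 after the start, a match found in 22.6% of windows. No matches overlapped. They describe these letters, and binding was not measured.

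Il10 was 8.80, 9.11 and 9.03 on the 3 LG_eTreg arrays, 5.37, 5.12 and 5.26 on the LG_eTconv arrays and 1.39, 1.46 and 1.61 on the LG_naive arrays, all on the log2 scale. The groups did not overlap, and the arrays of a group lay close together. Il10 was 7.49 higher in LG_eTreg than in LG_naive (SE 0.12, 95% interval 7.21 to 7.78, adjusted p = 4.66e-08), which is 180-fold. It was 3.76 higher in LG_eTconv than in LG_naive (SE 0.12, adjusted p = 8.94e-07, 13.6-fold) and 3.73 higher in LG_eTreg than in LG_eTconv (SE 0.12, adjusted p = 2.13e-06, 13.3-fold). On LG_naive replicate 1 the probe set was not above the array's background limit, taken as the brightest of its nonspecific control probe sets, and on the other two LG_naive arrays it was just above. In bulk RNA such as this, fewer cells that express a gene and less RNA per cell cannot be told apart, which applies to the intermediate Il10 level of LG_eTconv. Both spleen arrays, at 0.80 in Spl_CD4 and 0.12 in Spl_CD8, were below it.

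Prdm1 separated the regulatory subset from both other lacrimal gland subsets. It was 8.04, 8.13 and 8.03 in LG_eTreg, 4.69, 5.03 and 3.92 in LG_eTconv, and 3.95, 4.36 and 4.54 in LG_naive. LG_eTreg stood clear of the other arrays, among which LG_eTconv and LG_naive overlapped. The gene was 3.78 higher in LG_eTreg than in LG_naive (SE 0.27, adjusted p = 5.40e-05, 13.8-fold) and 3.52 higher than in LG_eTconv (SE 0.27, adjusted p = 0.000129, 11.5-fold). The difference of LG_eTconv from LG_naive was 0.26 (95% interval -0.36 to 0.88, adjusted p = 0.642), which leaves room for a change of either sign.

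Fgl2, read on its brighter probe set, was 6.35, 7.18 and 6.66 in LG_eTreg, 2.52, 2.65 and 3.43 in LG_eTconv and 3.12, 3.30 and 3.44 in LG_naive. It had the same shape as Prdm1: LG_eTreg was alone at the top and the other subsets overlapped. Fgl2 was 3.86 higher in LG_eTreg than in LG_eTconv (SE 0.28, adjusted p = 8.90e-05, 14.6-fold) and 3.44 higher than in LG_naive (SE 0.28, adjusted p = 9.80e-05, 10.9-fold). The difference of LG_eTconv from LG_naive was -0.42 (95% interval -1.06 to 0.22, adjusted p = 0.421). The other Fgl2 probe set was dimmer, at 2.04, 3.02 and 2.56 in LG_eTreg, 0.00, -0.16 and 0.10 in LG_eTconv and -0.04, 0.38 and 0.32 in LG_naive, and was above background in LG_eTreg alone among the lacrimal gland groups. Its signal was at least 2.29-fold higher in LG_eTreg than in LG_eTconv and at least 2.14-fold higher than in LG_naive (adjusted p = 0.000887 and 0.000695 over all probe sets). These bounds set the dim groups at the lowest signal that counts as above background.

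Gzmb was 5.26, 5.94 and 5.93 in LG_eTreg, 0.79, 0.89 and 1.21 in LG_eTconv and 0.70, 0.49 and 0.48 in LG_naive. It was above background on all 3 LG_eTreg arrays, on LG_eTconv replicate 3 alone of that subset, and on no LG_naive array. It was 4.74 higher in LG_eTreg than in LG_eTconv (SE 0.20, adjusted p = 6.68e-06), a difference measured against values that are mostly at background. Raising each dim value to its array's limit, Gzmb was at least 20.7-fold higher in LG_eTreg than in LG_eTconv and at least 19.3-fold higher than in LG_naive (adjusted p = 2.99e-06). With the highest limit of any array in place of each array's own, both bounds were 16.1-fold. The LG_eTconv arrays all lay above the LG_naive arrays, as for 13.8% of all genes, but the difference of 0.41 was not called (95% interval -0.05 to 0.87, adjusted p = 0.263).

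Ebi3 did not set the regulatory subset apart. It was 5.09, 4.12 and 3.83 in LG_eTreg, 5.01, 4.57 and 4.47 in LG_eTconv and 1.75, 1.40 and 1.80 in LG_naive, so the effector subsets overlapped and both stood clear of LG_naive. Ebi3 was 2.70 higher in LG_eTreg than in LG_naive (SE 0.31, adjusted p = 0.000691, 6.49-fold) and 3.03 higher in LG_eTconv than in LG_naive (SE 0.31, adjusted p = 0.000301, 8.19-fold). The LG_naive arrays lay only 0.05, 0.18 and 0.40 above their background limits, so the sizes of these differences from LG_naive are limited by background. The difference of LG_eTreg from LG_eTconv was -0.34 (95% interval -1.05 to 0.38, adjusted p = 0.716). LG_eTreg replicate 1 was the highest of its subset, and the SD over LG_eTreg arrays was 0.65, against 0.29 over LG_eTconv arrays.

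**Figure D2:**
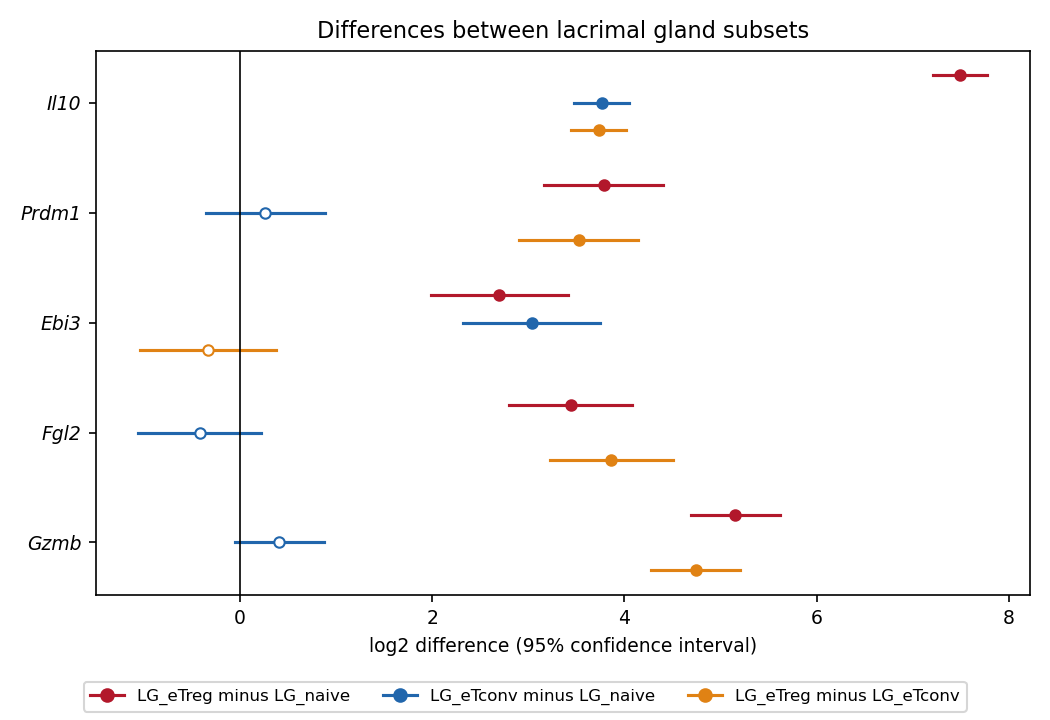
Log2 difference between lacrimal gland subsets for each gene, with its 95% confidence interval from the limma fit; filled points passed an adjusted p of 0.05 and open points did not. Il10 passed in all 3 comparisons, while Prdm1, Fgl2 and Gzmb did so in the comparisons with LG_eTreg and Ebi3 in those with LG_naive.

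Foxp3, the factor that defines regulatory T cells, was 8.21, 8.13 and 8.21 in LG_eTreg, 4.26, 4.85 and 3.61 in LG_eTconv and 2.86, 4.04 and 4.95 in LG_naive. It was 3.94 higher in LG_eTreg than in LG_eTconv (adjusted p = 0.00207), and LG_eTconv and LG_naive overlapped. Over 4 regulatory T cell markers the mean was 8.69 to 8.76 in LG_eTreg, 6.75 to 7.15 in LG_eTconv and 5.19 to 5.91 in LG_naive. Of the 4, 2, Ikzf2 and Ctla4, were called higher in LG_eTconv than in LG_naive, against 6.45% of all genes. In LG_eTreg against LG_eTconv 2, Foxp3 and Il2ra, were called higher, against 2.94%. Ikzf2 differed by 1.02 there and was not called (adjusted p = 0.096). All 7 T cell markers were above background on every array, and Cd8b1, which marks CD8 T cells, was 6.43 in Spl_CD8 and 1.63 in Spl_CD4. Markers of monocytes, macrophages and dendritic cells were lower in both effector subsets: their mean level over 11 of 12 markers lay between 2.42 and 2.70 in LG_eTreg, between 2.20 and 2.44 in LG_eTconv and between 4.08 and 4.26 in LG_naive. Of these 11, 8 were called lower in LG_eTreg and 8 in LG_eTconv than in LG_naive, against 5.47% and 7.02% of all genes. Csf1r and Itgam were at background in all 3 subsets. Between LG_eTreg and LG_eTconv 1 of the 11, Cd14, was called higher. Over all genes 2.94% were called higher and 2.76% lower in LG_eTreg than in LG_eTconv. Epithelial markers (4 of 6 measured) lay between 4.42 and 5.01 in LG_eTreg, between 3.16 and 3.42 in LG_eTconv and between 5.13 and 6.48 in LG_naive, with 2 of 4, Epcam and Krt18, called higher in LG_eTreg than in LG_eTconv. Markers of CD8 T and natural killer cells (6 of 7 measured), which could carry Gzmb, lay between 1.36 and 1.68 in LG_eTreg, between 1.67 and 1.85 in LG_eTconv and between 1.71 and 1.97 in LG_naive. None was called between LG_eTreg and LG_naive and 1, Cd8a, was lower in LG_eTreg than in LG_eTconv. In LG_eTconv against LG_naive 1, Cd8a, was called higher (1.56, adjusted p = 0.00161), against 6.45% of all genes. There 1, Eomes, was called lower (-1.79, adjusted p = 0.0234), against 7.02%, in 6 of 9 fits without 1 array. Ncr1 and Klra8 were at background on these arrays. B and plasma cell markers (6 of 8 measured), a lineage that uses Prdm1, lay between 2.10 and 2.55 in LG_eTreg, between 3.05 and 3.49 in LG_eTconv and between 3.32 and 3.46 in LG_naive, and 4 of 6 were called lower in LG_eTreg than in LG_naive. Whether epithelial RNA contributes to the differences between LG_eTreg and LG_eTconv was not tested.

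Against the spleen arrays, where 1 array a group allows no test, LG_eTreg was higher for all 5 genes. Counting a log2 difference of at least 1 with all 3 arrays on the same side, 5 of 5 were higher in LG_eTreg than in Spl_CD4, a rule that 6.44% of all genes passed, and 5 of 5 were higher than in Spl_CD8, where 7.69% passed. Il10, below background on both spleen arrays, was at least 171-fold higher in LG_eTreg than in Spl_CD4 and at least 239-fold higher than in Spl_CD8, and at least 12.9-fold higher in LG_eTconv than in Spl_CD4. For Gzmb the spleen arrays, at 3.29 in Spl_CD4 and 3.51 in Spl_CD8, lay above all LG_eTconv and LG_naive arrays, and LG_naive, at background on all 3 arrays, was at least 3.61-fold lower than Spl_CD4 and at least 4.2-fold lower than Spl_CD8. LG_eTconv was above background on 1 of 3 arrays, so no exact difference from spleen can be given for it. By the same rule LG_eTconv was higher than Spl_CD4 for 2 of 5 genes, Il10 and Ebi3, and lower for 1, Gzmb, where 6.56% and 6.62% of all genes passed. The same genes passed against Spl_CD8, where 7.67% of all genes were higher and 7.76% lower. LG_naive was lower than Spl_CD4 for 2 of 5, Ebi3 and Gzmb (4.57% of all genes), and lower than Spl_CD8 for 2 of 5, Prdm1 and Gzmb (5.43%). Il10 passed as higher in LG_naive than in Spl_CD8, as 6.11% of all genes did, with its level just above background on 2 of 3 LG_naive arrays and below it in Spl_CD8.

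Prdm1 was 5.08 in Spl_CD4 and 5.46 in Spl_CD8, below every LG_eTreg array and above every LG_eTconv and LG_naive array, although Spl_CD4 was only just above LG_eTconv replicate 2. LG_naive differed from Spl_CD8 in Prdm1 by -1.17 and LG_eTconv by -0.91. Ebi3 was 2.68 in Spl_CD4 and 2.52 in Spl_CD8, between the effector subsets and LG_naive. For Fgl2, Spl_CD4 was 3.14 and Spl_CD8 2.32 on the brighter probe set, with Spl_CD4 among the LG_eTconv and LG_naive arrays and Spl_CD8 below them. From high to low the levels therefore ran LG_eTreg and LG_eTconv for Il10, with LG_naive and spleen at or near background and not ranked; LG_eTreg and spleen, then LG_eTconv and LG_naive with no difference called between them, for Prdm1 and Gzmb; and the overlapping effector subsets, spleen and LG_naive for Ebi3.

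Of 14 measured genes that induce or repress Il10 in T cells, 6 were called higher and 0 lower in LG_eTreg than in LG_naive (median 0.79, against -0.02 over all genes). In LG_eTconv against LG_naive 7 were called higher and 1 lower (median 1.02, against -0.03). Over all genes 6.2% and 6.45% were called higher and 5.47% and 7.02% lower in these comparisons. Between LG_eTreg and LG_eTconv 0 were called higher and 2 lower (median -0.19, against 0.01 over all genes, of which 2.94% were called higher and 2.76% lower). Maf, a transcription factor that binds the Il10 locus in T cells, averaged 6.78 ± 0.38 in LG_eTreg, 6.41 ± 0.11 in LG_eTconv and 3.11 ± 0.45 in LG_naive (SD, n = 3 each). Its difference of LG_eTreg from LG_eTconv was 0.37 (95% interval -0.22 to 0.95, adjusted p = 0.589), while Il10 differed by 3.73. The aryl hydrocarbon receptor gene Ahr and Nfil3, a leucine zipper factor, were likewise higher in both effector subsets than in LG_naive, by 3.67 and 3.11 in LG_eTreg and by 3.19 and 2.72 in LG_eTconv. The 2 called lower in LG_eTreg than in LG_eTconv were Il21, a cytokine that can induce Il10, at -2.90 (adjusted p = 9.96e-06), and Bhlhe40, which represses Il10 in mouse T cells, at -0.75 (adjusted p = 0.0329). This Bhlhe40 call was lost without any 1 of the 6 effector arrays, with an adjusted p of up to 0.105. It was also lost with a replicate block (0.0658) or with values set to the background limit (0.0626). Against LG_naive (7.15, 6.67 and 7.33), Bhlhe40 was called higher in LG_eTreg (9.14, 9.28 and 9.14) and LG_eTconv (9.89, 9.94 and 9.97). Those calls held without any 1 array, so Bhlhe40 is among the genes counted above as higher in the effector subsets. Il21 averaged 5.62 in LG_eTreg, 8.52 in LG_eTconv and 1.11 in LG_naive, so the subset with the most Il10 was not the one with the most Il21.

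The ligand-binding chain of the interleukin 10 receptor, Il10ra, was itself highest in LG_eTreg. It averaged 5.17 ± 0.10 in LG_eTreg, 3.35 ± 0.40 in LG_eTconv and 2.54 ± 0.53 in LG_naive (SD, n = 3 each). It was 2.63 higher in LG_eTreg than in LG_naive (adjusted p = 0.000463) and 1.82 higher than in LG_eTconv (adjusted p = 0.00631), and 0.81 apart between LG_eTconv and LG_naive (adjusted p = 0.107; 0.0185 without LG_naive replicate 3). Of 8 receptor and response genes 2 were called higher in LG_eTreg than in LG_naive and 0 in LG_eTconv than in LG_naive. In LG_eTreg against LG_eTconv 3 were called higher, and none was called lower in any comparison. Over all genes 6.2%, 6.45% and 2.94% were called higher and 5.47%, 7.02% and 2.76% lower in these comparisons. The Il10ra call between the effector subsets was lost with the 3 arrays of outlying control signals removed together (adjusted p = 0.073). In both comparisons of LG_eTreg the call on Il10ra was kept without any 1 array, and those on the kinase gene Tyk2, the shared receptor chain Il10rb and Bcl3, an NF-κB regulator, were each lost without at least 1.

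The partner of Ebi3 in interleukin 35, Il12a, was at or below background on all 9 lacrimal gland arrays. It averaged 0.29 in LG_eTreg, 0.19 in LG_eTconv and 0.85 in LG_naive, where no fold can be given. In the spleen Il12a was below background in Spl_CD4 and above it in Spl_CD8, at 1.44 against a limit of 1.08. Il27 was not analysed here, so no level can be given for that partner. Of 7 chains and receptors of the interleukin 12 family, 1 was called higher in LG_eTreg and 1 in LG_eTconv than in LG_naive: in both cases the receptor chain Il12rb1, by 1.68 (adjusted p = 0.000763) and 1.18 (adjusted p = 0.00446). Between LG_eTreg and LG_eTconv 0 of 7 were called, as for Ebi3. Over all genes 6.2% were called higher in LG_eTreg and 6.45% in LG_eTconv than in LG_naive. Between the effector subsets 2.94% were called higher and 2.76% lower in LG_eTreg.

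Blimp-1 holds down a set of genes in lymphocytes, and 9 of them were measured. In LG_eTreg against LG_eTconv, where Prdm1 was higher, 3 were called lower and 0 higher (median -0.46, against 0.01 over all genes). In that comparison 2.76% of all genes were called lower and 2.94% higher. Against LG_naive, 1 was higher and 2 lower in LG_eTreg, and 3 were higher and 1 lower in LG_eTconv. Over all genes 6.2% and 6.45% were higher and 5.47% and 7.02% lower in these 2 subsets than in LG_naive. Il2, the T cell growth factor, was 1.59, 1.87 and 0.93 in LG_eTreg, 6.52, 6.53 and 6.53 in LG_eTconv and 1.34, 0.69 and 2.40 in LG_naive. Il2 was high in LG_eTconv alone, with a difference of LG_eTreg from LG_eTconv of -5.07 (adjusted p = 0.000156). It was not above background on LG_eTreg replicate 3 or on LG_naive replicates 1 and 2. The size of its difference is therefore limited by background. LG_naive was low in both Il2 and Prdm1. The transcription factor gene Spib was 4.41 lower in LG_eTreg and 2.99 lower in LG_eTconv than in LG_naive. In these comparisons it moved with the myeloid markers given above, whose part in it was not tested. The Spib call between LG_eTreg and LG_eTconv (-1.42, adjusted p = 0.0118) was lost without LG_eTreg replicate 2 (adjusted p = 0.0514). The follicular homing receptor Cxcr5 differed by -1.20 between LG_eTreg and LG_eTconv (adjusted p = 0.0392). That call held without LG_eTreg replicate 3 and was lost without any other single array. Cxcr5 was also the gene called higher in LG_eTreg than in LG_naive, a call kept in 5 of 9 fits without 1 array. In LG_eTconv against LG_naive it was called higher in all 9 such fits. Of the 9 genes, Pax5 was below background on all lacrimal gland arrays and Ciita on all effector arrays. Bcl6, the follicular helper factor that opposes Blimp-1, averaged 8.11 ± 0.15 in LG_eTreg, 8.57 ± 0.05 in LG_eTconv and 8.01 ± 0.15 in LG_naive, and its difference of LG_eTreg from LG_eTconv, -0.46, was not called (adjusted p = 0.0652; 0.0311 after a second quantile normalization).

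Of 16 other granzymes and granule genes measured, 4, Gzmd, Gzme, Gzmf and Gzmg, were below background on all lacrimal gland arrays and could not be called. In LG_eTreg against LG_naive 2 of the 16 were called higher, where 6.2% of all genes were. They were Stx11, a vesicle fusion protein (3.70 higher), and Gzmk (2.53 higher). Stx11 was 4.03 higher in LG_eTconv than in LG_naive as well. In LG_eTconv against LG_naive 2 of 16 were higher and 1 lower, against 6.45% and 7.02% of all genes. The second of those higher, Gzmk (1.57, adjusted p = 0.0285), was lost without LG_eTconv replicate 1 or 2 or any 1 LG_naive array, with a replicate block (adjusted p = 0.0511) and at the background limit (0.0771), which leaves 1. The lower was Ctsc, the cathepsin that activates granzymes (-1.18, adjusted p = 0.00625; not called at -0.64 with the mean of its probe sets, adjusted p = 0.234). In LG_eTreg against LG_eTconv 1 of 16, Gzma, was called higher, where 2.94% of all genes were. Gzma was 2.60, 3.05 and 5.07 in LG_eTreg, 0.53, 1.57 and 0.34 in LG_eTconv, 1.84, 2.30 and 1.38 in LG_naive, 5.09 in Spl_CD4 and 8.39 in Spl_CD8. LG_eTreg replicate 3 was far above the other two, and the call (2.76, adjusted p = 0.0389) was kept without LG_eTreg replicate 1 or replicate 3 and lost without any other single array. Gzma was above background on 1 of 3 LG_eTconv arrays, and with values set to the background limit the difference was 1.87 and not called (adjusted p = 0.223), nor was it with a replicate block (adjusted p = 0.073). Perforin, Prf1, which granzyme B needs to enter target cells, averaged 4.73 ± 0.03 in LG_eTreg, 4.43 ± 0.45 in LG_eTconv and 4.84 ± 0.11 in LG_naive. Its difference of LG_eTreg from LG_naive was -0.11 (95% interval -0.57 to 0.35, adjusted p = 0.833), although with the mean of its probe sets Prf1 was called lower (-0.76, adjusted p = 0.00857). In that setting it was also lower in LG_eTconv than in LG_naive (-1.08, adjusted p = 0.00108). Prf1 was called higher in LG_eTreg in neither setting, unlike Gzmb. Serpinb9, the intracellular inhibitor of granzyme B, averaged 5.56, 5.41 and 5.07 in the same order of subsets, and its difference of LG_eTreg from LG_naive was 0.48 (95% interval -0.04 to 1.01, adjusted p = 0.259).

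**Figure D3:**
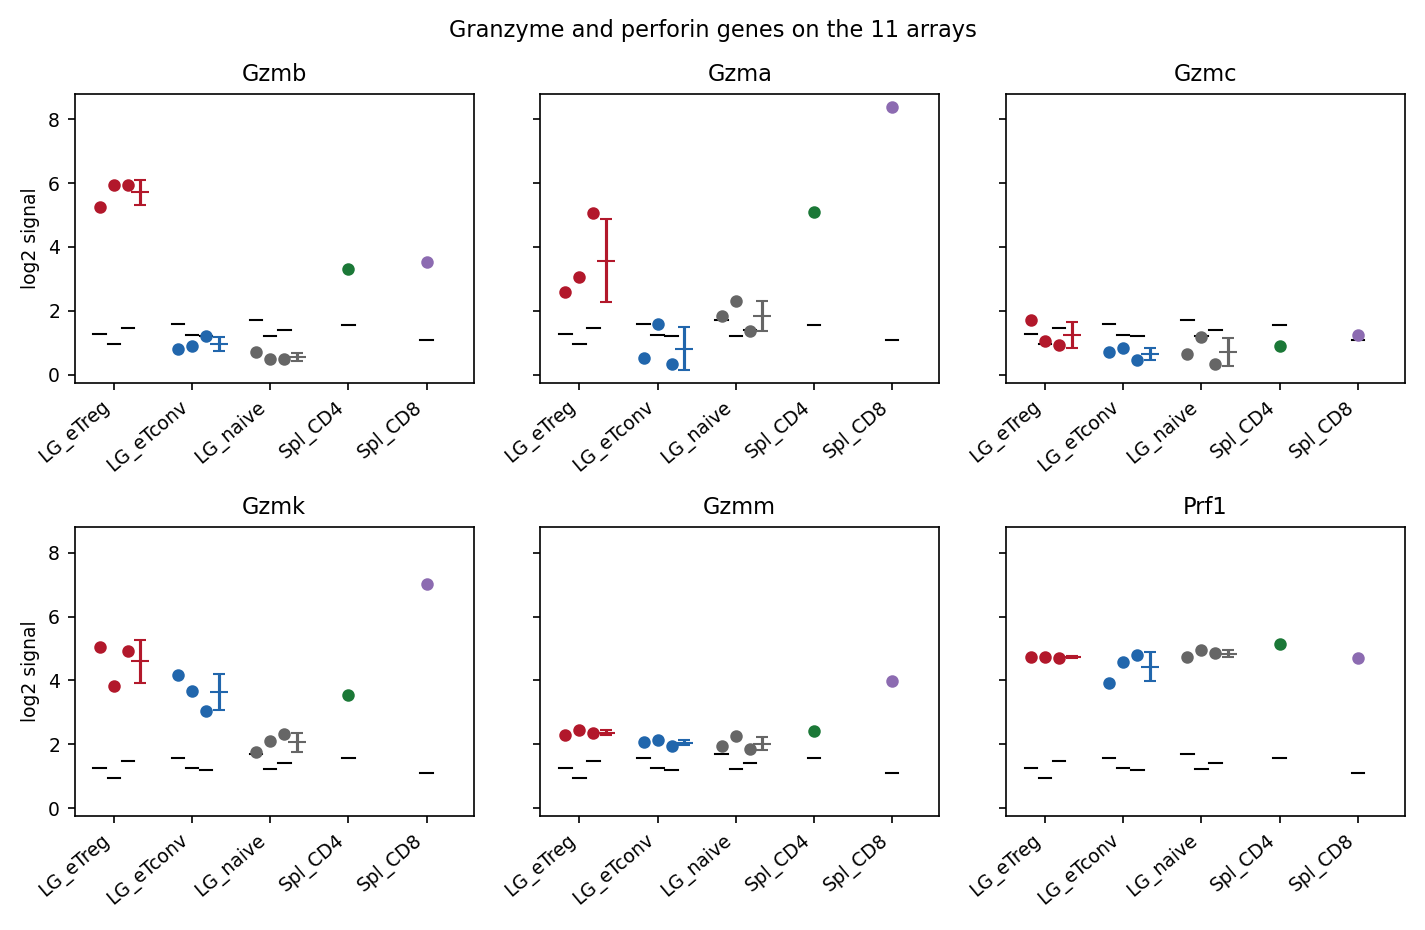
Log2 level of Gzmb, Gzma, Gzmc, Gzmk, Gzmm and Prf1 on every array, by group. Points are arrays, black ticks mark each array's background limit, and bars give mean and SD over 3 lacrimal gland arrays. Gzmb averages 5.71 in LG_eTreg, against 0.96 in LG_eTconv and 0.55 in LG_naive. Prf1, on the probe set plotted, was not called between any of the 3 subsets.

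Of 4 relatives and receptors of Fgl2, the inhibitory Fc receptor Fcgr2b was lower in the effector subsets than in LG_naive, by 2.68 in LG_eTreg (adjusted p = 0.0381) and by 2.94 in LG_eTconv (adjusted p = 0.0225). Both calls were lost without at least 1 array, and it moved with the myeloid markers given above, whose part in it was not tested. Lag3, an inhibitory receptor that binds the related protein Fgl1, was 4.04 higher in LG_eTreg and 3.75 higher in LG_eTconv than in LG_naive, and its difference between them was 0.28 (adjusted p = 0.679). Fgl1 was below background on all lacrimal gland arrays.

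Of 11 other suppressor molecules, 9 were called higher in LG_eTreg and 7 in LG_eTconv than in LG_naive, with 0 lower in either (medians 1.87 and 1.43). Over all genes 6.2% and 6.45% were called higher and 5.47% and 7.02% lower (medians -0.02 and -0.03). In LG_eTreg against LG_eTconv 5 of the 11 were higher and 0 lower (median 0.34, against 0.01 over all genes). In that comparison 2.94% of all genes were called higher and 2.76% lower. Without any 1 array, 7 of the 9, 6 of the 7 and 3 of the 5 calls held. Il1r2, the decoy receptor of interleukin 1, was graded as Il10 was, with 5.45 ± 0.18 in LG_eTreg, 3.63 ± 0.32 in LG_eTconv and 0.96 ± 0.43 in LG_naive, and was 1.82 higher in LG_eTreg than in LG_eTconv (adjusted p = 0.00278). Entpd1, the ectoenzyme CD39, averaged 5.25 ± 0.25 in LG_eTreg, 4.25 ± 0.13 in LG_eTconv and 2.82 ± 0.29 in LG_naive; its call as higher in LG_eTreg than in LG_eTconv (95% interval 0.58 to 1.42, adjusted p = 0.0142) was lost without LG_eTconv replicate 1 (adjusted p = 0.0591) or replicate 2 (adjusted p = 0.0505). Havcr2, the inhibitory receptor TIM-3, was 3.15 higher in LG_eTreg than in LG_eTconv (adjusted p = 0.00145). Unlike Prdm1 it did not overlap between LG_eTconv and LG_naive, where its difference was -1.29 (adjusted p = 0.054), called without LG_naive replicate 1. Lgals3, a galectin, was 2.75 higher in LG_eTreg than in LG_eTconv (adjusted p = 0.00327). Ctla4, the CD28 antagonist, followed that of Ebi3: it was 1.95 higher in LG_eTreg and 1.66 higher in LG_eTconv than in LG_naive, and 0.29 apart between them (adjusted p = 0.267). Tgfb1 was 0.78 higher in LG_eTreg than in LG_naive without being called (adjusted p = 0.0642, or 0.0225 without LG_naive replicate 3). It was called higher in LG_eTconv than in LG_naive, a call kept in 5 of 9 fits without 1 array. Between LG_eTreg and LG_eTconv it was not called.

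**Figure D4:**
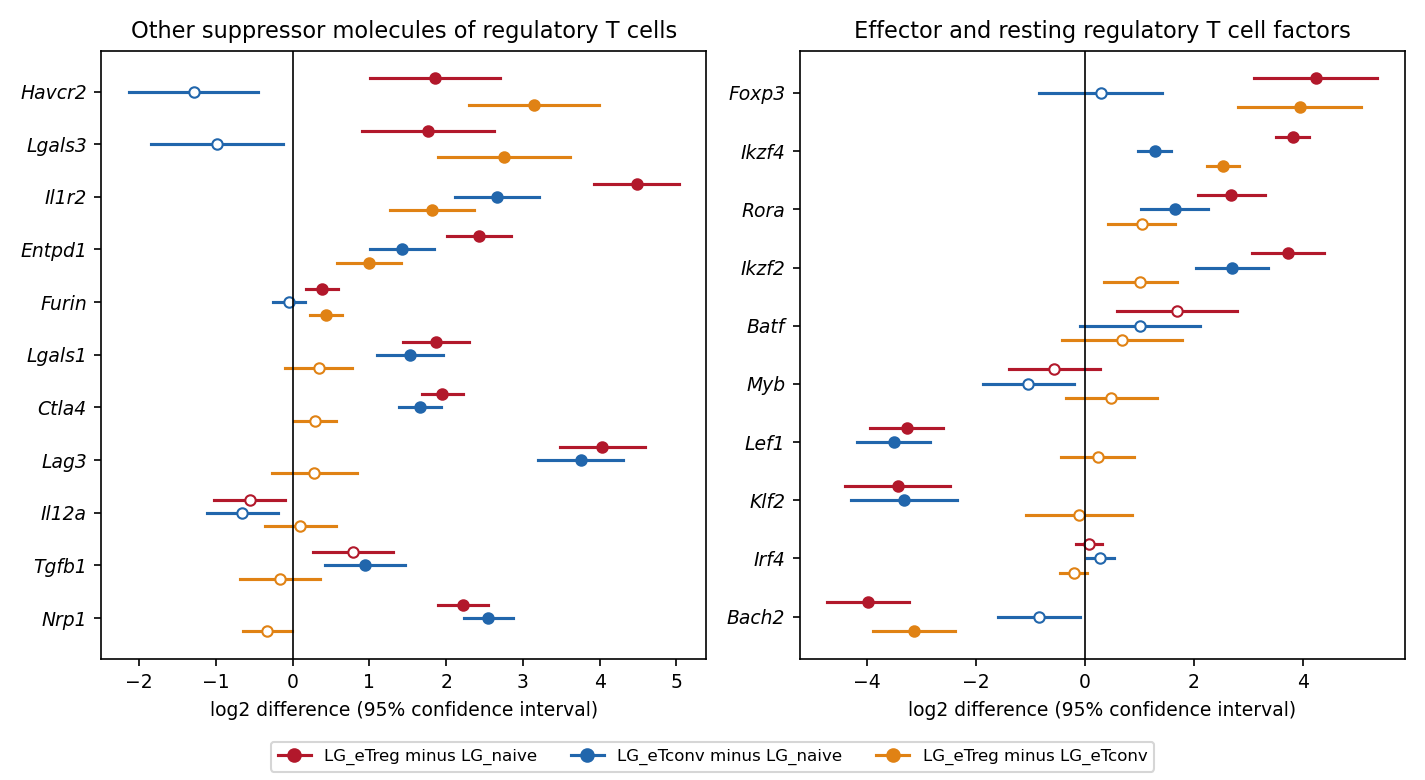
Log2 differences with 95% confidence intervals for other suppressor molecules (left) and for transcription factors of effector and resting regulatory T cells (right); filled points passed an adjusted p of 0.05. Havcr2 and Lgals3 have the widest gap of LG_eTreg over LG_eTconv at the left, and Foxp3 and Ikzf4 lie opposite to Bach2 at the right.

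Among 10 factors of effector and resting regulatory T cells, 2 were called higher and 1 lower in LG_eTreg than in LG_eTconv. Over all genes 2.94% were called higher and 2.76% lower. The calls on these factors held without any 1 array. Those higher were Foxp3 and Ikzf4, an Ikaros family factor (2.53, adjusted p = 1.33e-05). Bach2, which in mouse T cells represses effector genes including Prdm1, was the lower: it averaged 4.35 ± 0.79 in LG_eTreg, 7.48 ± 0.08 in LG_eTconv and 8.33 ± 0.01 in LG_naive, and differed by -3.13 between LG_eTreg and LG_eTconv (adjusted p = 0.00073). Bach2 was lowest in LG_eTreg, where Prdm1 was highest, and higher in LG_eTconv and LG_naive, where Prdm1 was lower. Whether Bach2 contributes to the Prdm1 levels was not tested.

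For each member the 3 genes with the most similar profile over the 11 arrays were found among 6914 genes by Pearson's r, given as a description since the 11 arrays share 5 groups and the value mostly records the group means. For Il10 they were Il1r2 (0.988), Tmbim1 (0.985) and Entpd1 (0.982), all graded from LG_eTreg to LG_naive. For Prdm1 they were the chemokine receptor gene Ccr4 (0.975), Glipr1 (0.971) and the Ikaros family gene Ikzf3 (0.966). For Fgl2 they were Nxpe4 (0.974), B4galnt4 (0.970) and Msrb3 (0.968). Nxpe4 averaged 5.99 in LG_eTreg, 1.02 in LG_eTconv and 1.01 in LG_naive. Its LG_eTconv and LG_naive means lay below the lowest background limits of those subsets, 1.20 and 1.22. For Gzmb they were S100a11 (0.961), Glipr1 (0.957) and Itgae, the integrin chain CD103 (0.954), so Glipr1 appeared for both Prdm1 and Gzmb. For Ebi3 they were Abhd4 (0.977), Myo1e (0.973) and Cnrip1 (0.964). Each was highest on average in the effector subsets and lowest in LG_naive, as Ebi3 was.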

How the data were processed

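Expression was measured on 11 Affymetrix arrays from mouse T cells. The deposited log2 values were made by the authors with the RMA method of the Partek software, as the submitters' processing notes record. The log base was inferred from the values; versions and further steps are not given in the sources used here. Per the labels, 1 sample had lower RNA integrity than the rest, and they do not tie it to an array. Of the 45141 probe sets, 104 were controls; 28898 had 1 gene symbol in the platform annotation, 551 several and 15588 none. For each of 17097 genes the probe set that was brightest on average in the lacrimal gland was used. limma (version 3.58.1, R 4.3.3) fitted a mean per lacrimal gland subset with 6 residual degrees of freedom, two-sided, with Benjamini-Hochberg adjustment; the code was tested on simulated data. Each array's background limit was its brightest nonspecific control probe set, 0.945 to 1.70, and between 55.5% and 65.6% of genes lay above it. With 3 arrays a subset and 1 a spleen group, their number limits the precision.

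The members, related gene lists and motifs were chosen with earlier results of these data known. Genes named are all members, up to 4 called genes of each list and comparison with the largest change, and 3 genes per member closest in profile. Maf, Il10ra, Il12a, Prf1, Serpinb9, Bcl6, Tgfb1, Ctla4 and Entpd1 are also named. The genes close in profile came from those with a range of at least 1 and a level above background on at least 3 arrays. Names that are clones or numbers were left out of them. Cd8b1, Fgl1 and other markers named were not chosen by these rules. The alternatives took the mean of a gene's probe sets, tested every probe set, left out dim genes, normalized again, set values to the background limit, used a variance trend or a replicate block, and left out arrays.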

Additional observations from a re-analysis of the deposited data

How the results depend on the processing

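Of 255 member tests under 17 alternatives, 254 kept their direction and side of the threshold. The exception was Ebi3 in LG_eTreg against LG_eTconv, 0.0867 with LG_eTreg replicate 3, LG_naive replicate 1 (both high in 18S control signal) and LG_eTconv replicate 1 (widest 3′ to 5′ actin gap) removed together, and not called in either setting; the cause was not tested. Over those alternatives the highest adjusted p of the Il10, Prdm1, Fgl2 and Gzmb differences of LG_eTreg from LG_eTconv was 0.00917. Testing every probe set gave 3424 calls in LG_eTreg against LG_naive, 4103 in LG_eTconv against LG_naive and 1557 in LG_eTreg against LG_eTconv, against 1995, 2303 and 974 genes, as more features were tested. The labels do not say that replicate numbers pair arrays, so arrays were not taken as pairs. Deviations of same-numbered arrays from their group means correlated at -0.0969 to 0.283. Between LG_eTreg and LG_eTconv the same-numbered correlations were 0.0788 to 0.283. Those of differently numbered arrays of these subsets were -0.230 to 0.0191. A replicate block was therefore run as an alternative. With the replicate block 1929, 2271 and 906 genes were called in those comparisons, Il10 differed by 3.73 between LG_eTreg and LG_eTconv (adjusted p = 0.000116), no member call changed, and the calls on Bhlhe40 and Gzma (LG_eTreg against LG_eTconv) and Gzmk (LG_eTconv against LG_naive) were lost. Among the other named genes 1210 of 1306 tests kept both. Those that turned were not called in the setting reported: Bcl6 in LG_eTreg against LG_naive (-0.10) and Serpinb9 in LG_eTconv against LG_naive (-0.15) with the mean of probe sets, and in LG_eTreg against LG_eTconv Serpinb9 without LG_eTconv replicate 3 (-0.0557) and Tgfb1 without LG_eTconv replicate 2 (0.0142), the ends of ranges without 1 replicate of -0.0557 to 0.26 for Serpinb9 and -0.28 to 0.0142 for Tgfb1. With the mean of its probe sets Prf1 was lower in LG_eTreg than in LG_naive, by -0.76, and in LG_eTconv than in LG_naive, by -1.08. Of the list counts 691 of 768 stayed within 1.5 times. Genes near the background limit have differences limited by background. Among them are Il10 in LG_naive and spleen, Ebi3 in LG_naive, Il12a, and Gzmb in LG_eTconv and LG_naive.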
